A study of Homo sapiens with 2 samples.

Results

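CHD4 occupancy was described at 10 genes linked to the invasive state of melanoma cells: *AXL*, *NGFR*, *EGFR*, *WNT5A*, *TEAD1*, *TEAD4*, *YAP1*, *CCN1*, *CCN2* and *ZEB1*. The genes were listed by name, and a peak was assigned to a gene when it overlapped the annotated gene, or the 10000 bp before its start, by at least 1 bp. All 10 genes were found among the 20163 protein-coding genes of the annotation, and 58 of the 60126 CHD4 peaks in the deposited list were assigned to them.

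The cells were 501Mel, an established human melanoma line, grown with 10% foetal calf serum. Chromatin was fixed with 0.4% paraformaldehyde and sonicated, and 1 library was sequenced from the CHD4 ChIP and 1 from input chromatin. There was no treatment and no replicate, so each value describes 1 peak list, and no difference between conditions could be tested. The list holds no read counts, and the expression of the 10 genes in these cells was not analysed here. For each peak the list gives the fold enrichment, which is the ratio of the ChIP to the background of the peak caller, and the −log10 of the q value. Positions are in GRCh37, the build that hg19 names.

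CHD4 is the ATP-dependent remodelling subunit of the NuRD complex, which joins nucleosome remodelling to histone deacetylation. Melanoma cells can pass between a melanocytic state, kept by MITF and SOX10, and an invasive state with mesenchymal traits, in which TEAD and AP-1 factors are prominent. In the Hippo pathway a kinase cascade holds YAP1 out of the nucleus, and YAP1 that escapes it binds TEAD proteins and activates targets such as *CCN1* and *CCN2*.

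The occupancy was uneven: *TEAD1* and *YAP1*, the DNA-binding factor and its coactivator, together held 42 of the 58 peaks (72.4%), while *NGFR*, *WNT5A* and *ZEB1* held none. A peak was found at 7 of the 10 genes (70.0%, Wilson 95% interval 39.7 to 89.2), beside 63.2% of all protein-coding genes. A peak within 1000 bp of the gene start was found at 4 of the 10, *TEAD4*, *YAP1*, *CCN1* and *CCN2*, beside 33.8% of protein-coding genes. Both shares were close to those of protein-coding genes in general and are no result about these 10 genes. A peak whose −log10 q reached 5 was found at 1 of the 10, *YAP1*, beside 5.46% of protein-coding genes.

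The following stretches of sequence are shown because they hold the strongest peaks of the 3 Hippo pathway factors and the start regions of their best-known targets. Capitals mark the letters of 4 motifs found on either strand: TGAGTCA of AP-1, GGAATG of TEAD, CAGGTG of the E-box that ZEB1 binds and CACGTG of the E-box that MITF binds. CACGTG reads the same on both strands, and no match in these stretches overlapped another. The 200 bp at the centre of the strongest *TEAD1* peak (chr11:12823498-12823697, plus strand, intron 3) held GGAATG and TGAGTCA. The 200 bp at the centre of the *TEAD4* peak (chr12:3067670-3067869, plus strand, before the gene) held CAGGTG and TGAGTCA. The strongest *YAP1* peak, shown whole (chr11:102068726-102068898, plus strand, intron 4), held none of the 4 motifs. In the 250 bp before the gene start, *CCN1* (chr1:86046194-86046443, plus strand) had GGAATG once, read on the other strand as CATTCC, and *CCN2* (chr6:132272513-132272762, minus strand) had it 3 times.
TEAD1 strongest peak: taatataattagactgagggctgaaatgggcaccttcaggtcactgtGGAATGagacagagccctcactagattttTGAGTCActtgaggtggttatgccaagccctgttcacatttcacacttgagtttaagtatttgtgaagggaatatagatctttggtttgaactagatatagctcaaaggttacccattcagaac
TEAD4 peak: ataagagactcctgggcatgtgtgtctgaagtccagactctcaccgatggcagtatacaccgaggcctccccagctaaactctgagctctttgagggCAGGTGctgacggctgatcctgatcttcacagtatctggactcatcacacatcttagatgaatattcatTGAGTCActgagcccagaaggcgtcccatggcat
YAP1 strongest peak: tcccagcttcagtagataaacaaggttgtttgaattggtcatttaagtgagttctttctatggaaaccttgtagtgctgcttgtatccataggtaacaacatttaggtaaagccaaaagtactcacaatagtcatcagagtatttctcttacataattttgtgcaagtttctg
CCN1 start region: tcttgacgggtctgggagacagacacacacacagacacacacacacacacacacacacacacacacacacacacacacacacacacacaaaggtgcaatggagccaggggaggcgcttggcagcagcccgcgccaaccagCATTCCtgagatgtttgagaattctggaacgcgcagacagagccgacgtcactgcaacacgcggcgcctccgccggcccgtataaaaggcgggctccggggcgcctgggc
CCN2 start region: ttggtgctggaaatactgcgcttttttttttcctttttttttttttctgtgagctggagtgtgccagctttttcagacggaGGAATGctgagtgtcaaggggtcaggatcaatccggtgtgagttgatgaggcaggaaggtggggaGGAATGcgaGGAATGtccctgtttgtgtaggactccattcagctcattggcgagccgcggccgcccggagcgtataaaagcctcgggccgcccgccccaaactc

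Of all 60123 peaks outside the mitochondrial sequence, 4.53% held TGAGTCA, 11.6% GGAATG, 13.8% CAGGTG and 3.45% CACGTG in the central 200 bp. Of the 250 bp before the start of protein-coding genes, 3.34% held TGAGTCA, 11.0% GGAATG, 18.4% CAGGTG and 7.17% CACGTG. Matches of letters this short are frequent, and a match is not a binding site.

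**Figure D1:**
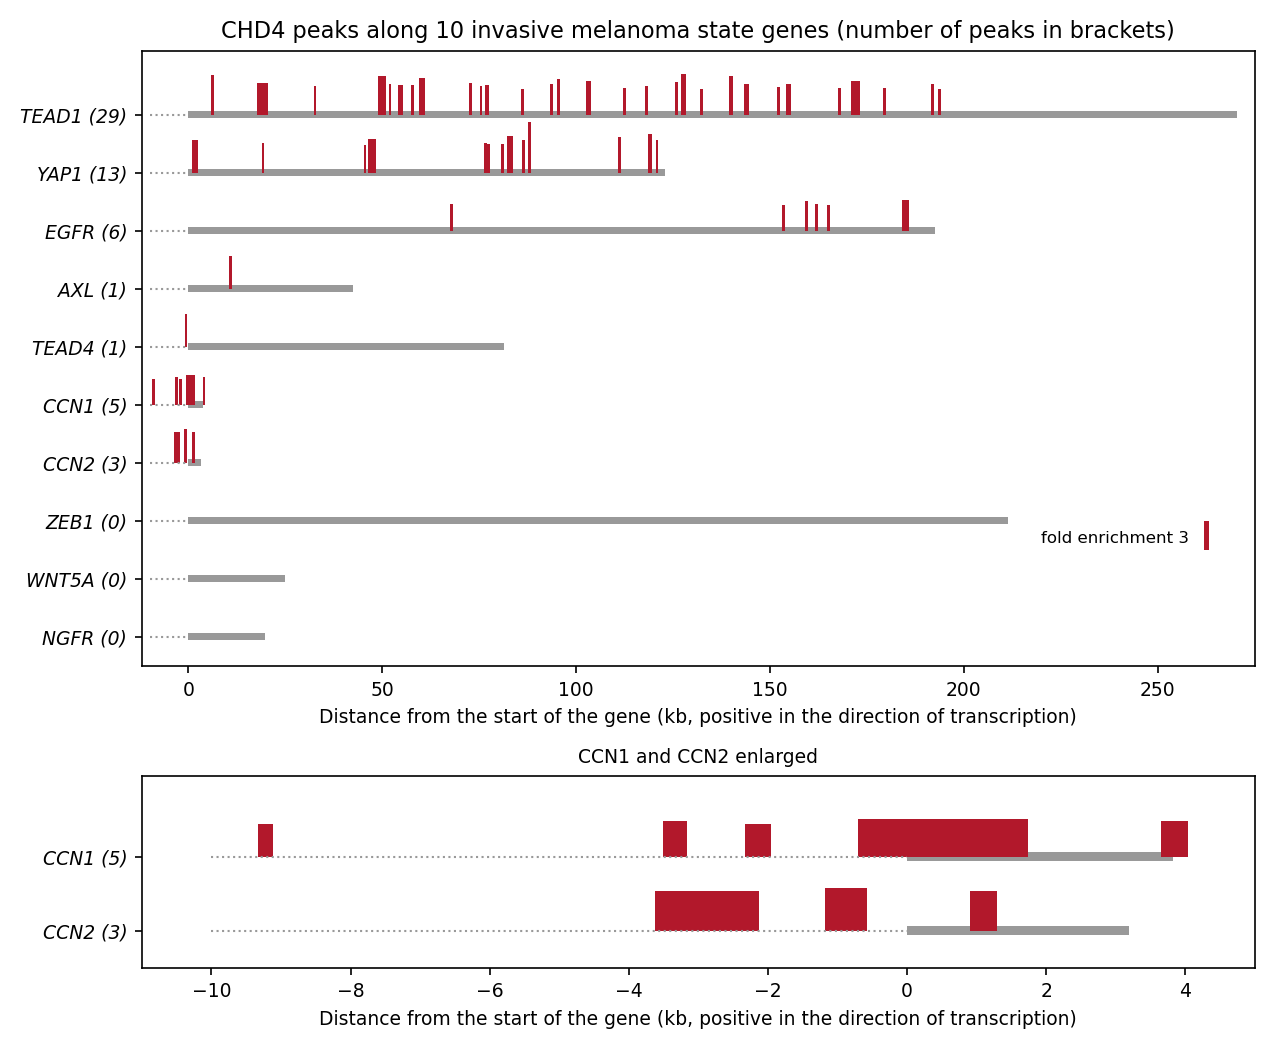
CHD4 peaks (red) along each of the 10 genes (grey bars) and the 10 kb before each start (dotted), by distance from the gene start in kb, positive in the direction of transcription; the height of a peak is its fold enrichment, and narrow peaks in the upper panel are drawn wider than they are so that they can be seen. *TEAD1* carries 29 peaks and *YAP1* 13, *ZEB1*, *WNT5A* and *NGFR* none, and the lower panel enlarges *CCN1* and *CCN2*.

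Among the receptors, *AXL*, a tyrosine kinase of the TAM family that binds GAS6, lies at chr19:41725128-41767671 on the plus strand. Its only peak (chr19:41735639-41736428) began 10511 bp after the start, in intron 4, with 3.35-fold enrichment and −log10 q of 2.38. Within 150 bp of its centre lay a CACGTG. Gene length matters for such counts: 61.9% of protein-coding genes from 10 to 30 kb had a peak, and 79.3% of those from 100 to 200 kb. Each gene was therefore set beside the protein-coding genes within 25% of its own length. For *AXL*, 42.5 kb long, 68.1% of 2772 such genes had a peak, so a single peak was ordinary for the length.

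*EGFR*, the epidermal growth factor receptor, lies at chr7:55086710-55279321 on the plus strand and had 6 peaks, all with their centre in introns and clear of the exons of the canonical transcript. Its start region was free of peaks, as the nearest began 67581 bp after the start, in intron 1. Intron 1 takes up 63.8% of the gene and held 1 peak. The other 5 lay in introns 16, 19, 19, 20 and 27, towards the 3′ end, and the fourth and the fifth peak overlapped the antisense gene *EGFR-AS1*. The fold enrichments ran from 2.63 to 3.15, beside a median of 3.09 over all peaks. The highest belonged to the last peak (chr7:55270805-55272662, 1858 bp), and the highest −log10 q, 3.04, to the third (chr7:55245709-55245943). Of 1192 genes of like length, 37.5% had at least as many peaks, and their median was 4. Only 3 of the 6 peaks reached a −log10 q of 2. Around *EGFR*, the 500000 bp on either side held 0.8 peaks per 100 kb, beside 1.94 over the whole genome.

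*NGFR*, the low-affinity neurotrophin receptor and a marker of neural crest-like melanoma cells, lies at chr17:47572655-47592370 on the plus strand and had no peak. The nearest one (chr17:47595111-47595548) began 2741 bp past the end of the gene, with 2.95-fold enrichment and −log10 q of 1.52. On the other side the nearest peak ended 40860 bp before the start. The 500000 bp on either side of *NGFR* held 3.4 peaks per 100 kb, beside 1.94 over the whole genome. Of 2525 genes of like length, 36.8% were also without a peak, so an empty gene of this size was common.

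*WNT5A*, a secreted ligand of non-canonical Wnt signalling that promotes melanoma cell motility, lies at chr3:55499743-55524567 on the minus strand and had no peak. Of 2647 genes of like length, 35.7% had none either. Its surroundings held few peaks as well. The nearest peak upstream, with a fold enrichment of 2.72, lay 113503 bp before the start, and the nearest downstream lay 1622560 bp past the end. The whole stretch without a peak measured 1761 kb, held 0 unsequenced bases and touched 8 protein-coding genes. The median stretch between neighbouring peaks was 9.49 kb, and 96 of 60099 stretches (0.160%) were at least as long as the one around *WNT5A*. This stretch was looked at because it holds a gene without a peak, and longer stretches are likelier to hold one. The share therefore does not say how unusual such a gene is. Peaks in the 500000 bp on either side of the gene numbered 5.

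*YAP1*, the coactivator that the Hippo kinases inhibit, lies at chr11:101981178-102104155 on the plus strand and had 13 peaks. They reached from near the start to near the end: the first began 836 bp after the start and the last ended 2326 bp before the gene end. They were spread unevenly, with a median gap of 2635 bp between neighbouring peaks and a longest of 27937 bp. Introns 3, 5 and 7 held no peak centre. By their centres, 1 lay in intron 1, 3 in intron 2, 6 in intron 4, 1 in intron 6, 1 in intron 8 and 1 in exon 9. Intron 4 makes up 16.1% of the gene and held 6 of its 13 peaks. The strongest peak of all 58, shown above, was the last of the intron 4 group. It was 173 bp long, with a fold enrichment of 5.25, higher than that of 99.7% of all peaks, and a −log10 q of 6.77. The next strongest peak of *YAP1* (chr11:102099800-102100829) had 3.99-fold enrichment and −log10 q of 4.74 and reached 397 bp into exon 9, the last exon. The peaks of *YAP1* were poor in G and C, with a median GC content of 38.0%, beside 43.8% over all peaks. Of 1792 genes of like length, 106 (5.92%, Wilson interval 4.91 to 7.10) had at least 13 peaks, and their median was 3. The count depended on the setting: with peaks within 1000 bp joined it was 8, a number reached by 13.2% of those genes, and among peaks whose −log10 q reached 2 it was also 8, reached by 3.24%. The gene and the 10000 bp before it held 9.78 peaks per 100 kb, and the 500000 bp on either side 2.1.

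*TEAD1*, which binds DNA for YAP1, lies at chr11:12695968-12966284 on the plus strand and had 29 peaks, the most of the 10 genes. Every one was intronic, and none overlapped an exon of the canonical transcript. They filled the 5′ part of the gene: 12 had their centre in intron 2, 15 in intron 3 and 2 in intron 5. Introns 2 and 3 make up 69.0% of the gene and held 27 of the 29 peaks. The first peak began 5820 bp after the start, and behind the last the final 28.3% of the gene was empty. Between neighbouring peaks the median gap was 5537 bp and the longest 16051 bp.

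The *TEAD1* peaks were of ordinary strength. Their fold enrichments ran from 2.63 to 4.16 with a median of 3.15, and 12 of the 29 reached a −log10 q of 2. The strongest (chr11:12822890-12824305, 1416 bp, intron 3) had 4.16-fold enrichment and −log10 q of 4.23. The next (chr11:12701788-12702299, 512 bp, intron 2) was also the nearest to the start, with 4.11-fold enrichment and −log10 q of 4.11. Their number was high for the length of the gene: of 783 genes of like length, 16 (2.04%, Wilson interval 1.26 to 3.29) had at least 29, and their median was 5. With the 12 peaks whose −log10 q reached 2, that share was 4.47%, and with peaks within 1000 bp joined, which left 27, it was 1.15%. Among all protein-coding genes 76 (0.377%) had as many. The density was 10.3 peaks per 100 kb, and in the 500000 bp on either side 5.1, itself above the 1.94 of the whole genome. Peaks covered 9.24% of the gene and the 10000 bp before it.

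*TEAD4*, another factor of the family, lies at chr12:3068496-3149842 on the plus strand and offered the opposite picture. Its only peak (chr12:3067519-3068019) ended 477 bp before the start, with 3.39-fold enrichment and −log10 q of 2.33, and the gene body was empty, so that without the bases before the start *TEAD4* had 0 peaks. Of 2155 genes of like length, 75.5% had at least 1 peak, and their median was 2.

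*CCN1*, a matricellular protein and a classical target of YAP1 and TEAD, lies at chr1:86046444-86050272 on the plus strand, is 3829 bp long and had 5 peaks. The longest (chr1:86045744-86048187, 2444 bp) spanned the start and reached exon 4, with 3.04-fold enrichment and −log10 q of 2.04. The start region printed above, with its CATTCC, lay within this peak. Another peak crossed the 3′ end, and 3 lay before the gene, with their centres at −9219, −3337 and −2146 bp from the start. The farther pair of these 3 also overlapped the neighbouring gene *DDAH1*, so they could be assigned to either gene. The folds of the 5 peaks stayed between 2.69 and 3.04. Among 1102 genes of like length, 5 (0.454%, Wilson interval 0.194 to 1.06) had at least 5 peaks, and the median was 0. Fewer peaks were left under other settings: 3 with 2000 bp before the start, a number reached by 1.27% of those genes, 4 with peaks within 1000 bp joined (0.272%), 2 without any bases before it (3.81%) and 2 among peaks whose −log10 q reached 2 (9.53%). The density was 36.2 peaks per 100 kb, against 1.5 in the 500000 bp on either side.

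*CCN2*, the connective tissue growth factor and the other classical target, lies at chr6:132269316-132272512 on the minus strand, is 3197 bp long and had 3 peaks. Before the gene lay chr6:132274639-132276131 and chr6:132273083-132273688, with fold enrichments of 3.23 and 3.49. The second of these ended 571 bp before the start. Within the gene, chr6:132271221-132271608 had its centre in intron 3, overlapped exons 3 and 4 and had a fold enrichment of 3.21. All 3 also overlapped the long noncoding RNA gene *LINC01013*. The density was 22.7 peaks per 100 kb, and in the 500000 bp on either side 4.8, itself above the 1.94 of the whole genome. Unlike at *CCN1*, the start region with its 3 GGAATG lay between peaks and in none of them. At least 3 peaks were found at 66 of 951 genes of like length (6.94%, Wilson interval 5.49 to 8.73), and the median was 0. Without the bases before the start *CCN2* kept 1 peak, a number reached by 20.2% of those genes, and 2 were left with peaks within 1000 bp joined (15.6%), with 2000 bp before the start (8.10%) or at a −log10 q of at least 2 (7.78%).

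*ZEB1*, a repressor that drives epithelial-mesenchymal transition and rises as melanoma cells leave the melanocytic state, lies at chr10:31607424-31818742 on the plus strand. Although 211 kb long, it had no peak, and 174 of 1045 genes of like length (16.7%) were likewise empty. The median of those genes was 4 peaks. The nearest peaks ended 287649 bp before the start and began 73603 bp past the end of the gene. The stretch without a peak measured 573 kb, and 1.37% of all stretches were at least as long. As for *WNT5A*, that share does not say how unusual an empty gene is. The gene's relative *ZEB2*, which marks the melanocytic state, had 24 peaks in 156694 bp, a number reached by 0.670% of genes of its length. *ZEB2* was picked once its values were known.

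**Figure D2:**
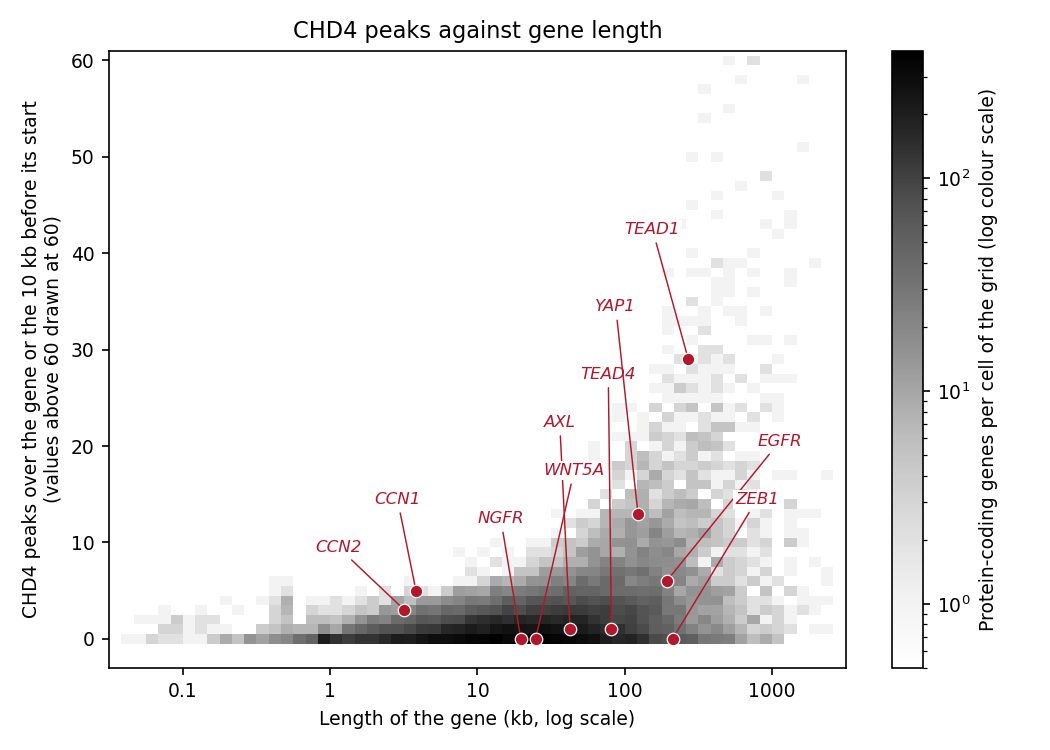
Number of CHD4 peaks over each protein-coding gene or the 10 kb before its start (vertical axis) against the length of the gene in kb (log scale); grey cells count genes on a log colour scale, red points are the 10 genes, and 3 genes with over 60 peaks are drawn at 60. *TEAD1*, *YAP1*, *CCN1* and *CCN2* lie high for their length, *AXL*, *TEAD4* and *EGFR* within the mass of genes, and *ZEB1*, *WNT5A* and *NGFR* at 0.

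Taking the 58 peaks as a set, their median fold enrichment was 3.15 (95% order-statistic interval 3.02 to 3.29), beside 3.09 over all peaks. The median −log10 q was 1.99 (1.78 to 2.29), beside 1.97. They were 581.5 bp long at the median (424 to 810), beside 613 bp, and their median GC content was 42.7% (41.4 to 46.6), beside 43.8%. In each of these measures the value over all peaks lay within the interval of the 58, which does not show that the 58 are like all peaks. The median fold enrichment of the peaks outside *TEAD1* and *YAP1* was 2.96 (2.71 to 3.23). By position, 50 had their centre in an intron, 1 in an exon, 6 before the gene and 1 past the canonical transcript. The genes and the 10000 bp before them held 5.41 peaks per 100 kb, beside 2.96 over protein-coding genes. Without *TEAD1* and *YAP1* the density was 2.43. Most of the 58 peaks share a gene and are not independent, while the intervals treat them as if they were.

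**Figure D3:**
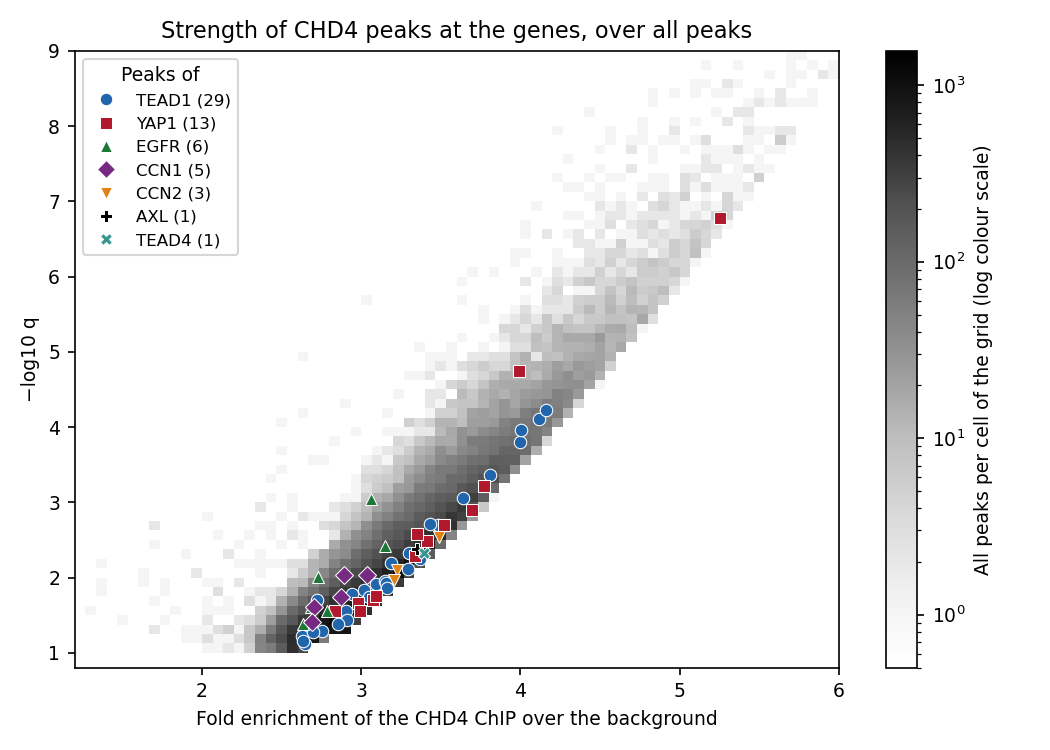
Fold enrichment (horizontal axis) against −log10 q (vertical axis) of the 58 peaks, coloured by gene, over the 60047 peaks inside the axes as grey cells on a log colour scale; 79 stronger peaks lie beyond the axes. Most of the 58 lie where all peaks are densest, and 1 *YAP1* peak, with a fold enrichment of 5.25, is the strongest.

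The letters of the 4 motifs were counted within 150 bp on either side of each peak's centre. TGAGTCA was found in 7 of the 58 peaks (12.1%, Wilson interval 5.97 to 22.9), beside 6.74% of all peaks. GGAATG was found in 8 (13.8%, 7.16 to 24.9), beside 17.1%. CACGTG was found in 2 (3.45%, 0.951 to 11.7), beside 5.05%. CAGGTG was found in 13 (22.4%, 13.6 to 34.7), beside 19.8%, and 10 of these 13 were peaks of *TEAD1*. For each motif the share over all peaks lay within the interval of the 58. In wider windows that no longer held for TGAGTCA. Within 250 bp of the centre it was found in 12 of the 58 (20.7%, 12.3 to 32.8), beside 10.8% of all peaks, and in whole peaks in 16 (27.6%, 17.8 to 40.2), beside 17.1%. At *TEAD1* itself, within 150 bp of the centre, CAGGTG was found in 10 of 29 (34.5%, 19.9 to 52.7), while 0 of the 13 *YAP1* peaks had it (0 to 22.8). The 19.8% of all peaks lay within the interval of *YAP1* and just below that of *TEAD1*. These 2 shares were picked from all motifs and genes once their values were known. The intervals treat peaks of 1 gene as independent, which they are not. The median GC content was 42.9% for the *TEAD1* peaks and 38.0% for the *YAP1* peaks, and its part in this was not tested. In the 250 bp before the start, GGAATG was found at 6 of the 10 genes, *WNT5A*, *TEAD1*, *YAP1*, *CCN1*, *CCN2* and *ZEB1*, beside 11.0% of protein-coding genes. As *CCN1* and *CCN2* are classical targets of YAP1 and TEAD, the choice of genes bears on this count. The other 3 motifs were found there at 0 (TGAGTCA), 2 (CAGGTG) and 1 (CACGTG) of the 10, beside 3.34%, 18.4% and 7.17%. Of the 6 genes with GGAATG, *WNT5A* and *ZEB1* had no CHD4 peak.

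Of 19 other genes of the Hippo pathway, 17 had a peak (89.5%, Wilson interval 68.6 to 97.1), beside the 63.2% of protein-coding genes, and 11 had it within 1000 bp of the start (57.9%, 36.3 to 76.9), beside 33.8%. At the shares found in genes of like length, summed over the list, 14.1 of the 19 would have a peak and 6.79 a peak near the start. This list and those below were chosen with earlier results of these data known, so their values are a description and no test. The highest fold enrichments were at *MOB1B* (4.31), which activates the LATS kinases, *TAOK1* (4.29), a kinase upstream in the cascade, *SAV1* (4.10), a scaffold of the cascade, and *NF2* (4.01), its tumour suppressor at the membrane. *AMOT* and *LATS1* had no peak. *WWTR1*, which encodes TAZ, the relative of YAP1, had 33 peaks in 219480 bp, a number reached by 0.505% of genes of like length. Of the remaining TEAD genes, *TEAD2* had 2 peaks, a number reached by 37.4% of genes of its length, and *TEAD3* had 3, reached by 20.8%. *AMOT*, *LATS1*, *WWTR1*, *TEAD2* and *TEAD3* were picked once their values were known.

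Of 16 other genes of the invasive state, 10 had a peak (62.5%, 38.6 to 81.5), close to the background, where genes of like length gave 10.7, and 5 had it within 1000 bp of the start, where they gave 5.84. The highest fold enrichments were at *PLAUR* (4.12), the urokinase receptor, *FN1* (3.96), fibronectin, and *TGFBI* (3.94), a matrix protein induced by TGF-beta. *CDH2*, *NT5E*, *SOX9*, *TGFBR2*, *THBS1* and *TNC* had no peak. *TWIST1*, also picked once its values were known, had 18 peaks in 96646 bp, a number reached by 0.849% of genes of its length. Of 26 relatives and partners of the 10 genes, 20 had a peak (76.9%, 57.9 to 89.0), where genes of like length gave 18.1, and 12 had it within 1000 bp of the start, where they gave 8.65. The strongest were at *ROR1* (5.38) and *ROR2* (5.14), both receptors of WNT5A, and at *SNAI2* (4.11) and *FZD5* (4.11), a transition factor and a Frizzled receptor. The ligands *GAS6* and *BDNF* had none. Within the TAM family of receptors, *MERTK* had 18 peaks in 130955 bp, a number reached by 2.39% of genes of its length, and *TYRO3* had 4 in 25915 bp, reached by 12.2%. For the 1 peak of *AXL* in 42544 bp that share was 68.1%. These receptors and ligands, like the empty genes of both lists, were picked once their values were known.

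Genes of the melanocytic state were listed for comparison. This list too, like the 10 genes, was chosen with earlier results of these data known, so its shares and intervals test nothing. All 19 had a peak (Wilson interval 83.2 to 100), where genes of like length gave 13.3, and 15 had it within 1000 bp of the start (78.9%, 56.7 to 91.5), where genes of like length gave 6.88. Their density was 9.53 peaks per 100 kb, beside 5.41 at the 10 invasive genes, and 4 of the 19 had a peak whose −log10 q reached 5 (21.1%), beside 5.46% of protein-coding genes. The highest fold enrichments were at *SLC45A2* (5.56), a melanosomal transporter, *PAX3* (5.19), a factor of the melanocyte lineage, *OCA2* (4.71), a melanosomal membrane protein, and *CDH1* (4.26), E-cadherin. *MITF*, picked once its values were known, had 43 peaks in 228881 bp, a number reached by 0.103% of genes of its length. Over the 19 genes that share ran from 0.0377% at *TYRP1* to 62.6% at *PMEL*, both likewise picked once their values were known. With 1 library, whether the lists differ beyond the spread between replicates was not tested, and *TWIST1*, *ERBB3*, *ZEB2* and *SNAI2* stand in more than 1 list.

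**Figure D4:**
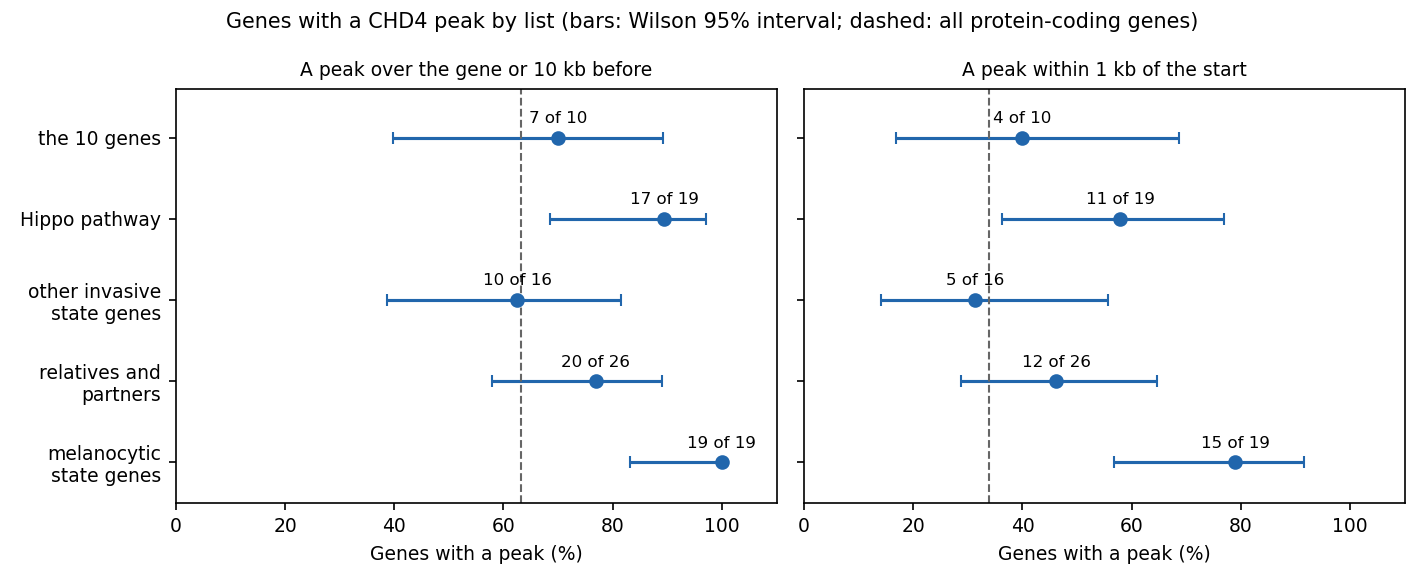
Share of genes in each list with a CHD4 peak over the gene or the 10 kb before its start (left) and within 1 kb of the start (right), in percent; points are shares with their counts, bars the Wilson 95% interval, which covers counting error only, and dashed lines all protein-coding genes (63.2% and 33.8%). The 10 genes lie near the dashed line, and the melanocytic genes, with 19 of 19 and 15 of 19, lie highest. All the lists were chosen with earlier results of these data known.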

How the data were processed

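ChIP-seq of CHD4 in 501Mel cells gave 1 deposited peak list, from 1 ChIP and 1 input library. Per the labels and the study's methods, the authors mapped single reads to hg19 with Bowtie (1.0.0 in the labels, another version in the study's reporting summary), kept reads with 1 best position and called broad peaks with MACS2 2.1.1.20160309. That the input was the control of this call is not stated in the sources used here. The deposited list gives for each region a fold enrichment, a ratio to the caller's background, and the −log10 of a q value, both computed by the authors' peak caller. The lowest deposited −log10 q was 1.004, so weaker regions are not in the list. The study's reporting summary gives a broad call and an FDR of 1% for the peaks, which as a cutoff is a −log10 q of 2. Of all deposited peaks 48.5%, and 29 of the 58 at the 10 genes, had a deposited value of at least 2. How the cutoff applies to the value given for a whole broad region is not stated there. A lower value therefore does not show that a peak failed the authors' cutoff.

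Peaks were read as GRCh37, counted from 1, and 0 ended beyond a GRCh37 chromosome. Genes, starts, exons and introns are those of GENCODE release 44 mapped to GRCh37, with the canonical transcript for exons and introns. Sequences were read from GRCh37. A promoter peak lay within 1000 bp of the gene start, and genes of like length were protein-coding genes within 25% of the length. Shares carry Wilson 95% intervals and medians exact order-statistic intervals. These intervals take in counting error alone, since peaks and genes do not replicate one another. The depth of the libraries is not given by the list, but the study's reporting summary states it for both, and it was not used here. Overlaps, intervals and motif search were tested on simulated data.

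The members and the lists were chosen with earlier results of these data known. All 10 genes were named, and of each other list at most 4 genes with the highest fold enrichment, together with those described as picked once their values were known. The other listed genes count in the totals, and their own values are not reported here. Alternatives were other windows, stricter q values, joined peaks, peak centres, other promoter widths and starts, other length classes and other motif windows. Computation was in Python 3.11.15 (pysam 0.24.0, scipy 1.17.1, pandas 2.3.3, numpy 2.4.6), with matplotlib 3.10.9 for drawing.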

Additional observations from a re-analysis of the deposited data

How the results depend on the processing

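The count of 7 genes with a peak stayed between 6 and 8 with other windows, joined peaks, peak centres or a −log10 q of at least 2. With peaks whose −log10 q reached 5 it was 1, with 1 peak, a density of 0.0932 per 100 kb at the 10 genes and 0.0748 at protein-coding genes, 0 promoter peaks and 1.5% of protein-coding genes with a promoter peak. That threshold left 5.46% of protein-coding genes with a peak, 0.0% of the Hippo pathway and of the other invasive genes, 7.69% of the relatives and partners and 21.1% of the melanocytic genes.

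A −log10 q of at least 2 left 29 peaks at the 10 genes and a density of 2.70, beside 1.45 at protein-coding genes, 48.2% of which had a peak and 20.8% a promoter peak. Of the 10 genes, 7 had a peak and 4 a promoter peak, as without the threshold. The Wilson intervals of these counts, 39.7 to 89.2 and 16.8 to 68.7, held the 48.2% and the 20.8%. Those 29 peaks had a median fold enrichment of 3.41, −log10 q of 2.58 and length of 948 bp, and all peaks 3.43, 2.70, 845 bp and a GC content of 44.5%. Fewer peaks and a higher median −log10 q follow from the threshold itself, and the cause of the other shifts was not tested. Over peaks at protein-coding genes alone the GC content was 44.4%.

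The share of protein-coding genes with a peak was 50.8% without the bases before the start, 58.3% with 2000 bp and 68.2% with 10000 bp after the end. With 500 bp on either side of the start, 2 of the 10 genes (*CCN1* and *TEAD4*) and 29.1% of protein-coding genes had a promoter peak. That share was 45.9% with 5000 bp and 42.4% with any annotated start, which brought the 10 genes to 5 by adding *TEAD1*.

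Within 250 bp of the centre, TGAGTCA was found in 12 peaks, GGAATG in 14 and CACGTG in 4. In whole peaks the counts were 16, 21 and 5, and 21 for CAGGTG. The shares over all peaks rose too, in whole peaks to 17.1%, 36.6%, 12.6% and 41.3%. Only for TGAGTCA, in both wider windows, did the share over all peaks lie outside the interval at the 10 genes.

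Among genes of like length, the share that matched or exceeded the count of peaks moved beyond its interval within 50% of the length for *EGFR* (31.8%), *YAP1* (4.29%) and *TEAD4* (72.6%), and within 10% for *TEAD4* (77.7%). For *TEAD1*, *CCN1*, *CCN2* and *AXL* it stayed inside. Other peak settings, added after seeing the data, moved it for each of these 7 genes, among them *AXL* to 50.9% and *TEAD4* to 60.5% at a −log10 q of at least 2 and *EGFR* to 34.1% with joined peaks.

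Leaving out *TEAD1* and *YAP1*, added after seeing the data, gave a density of 2.43 and a median fold enrichment of 2.96. Without *TEAD1* alone the density was 3.66. What depth does to these values was not examined. A paired analysis was not possible, because 1 ChIP and 1 input library were made.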
